A study of Mus musculus with 6 samples.

Results

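The genes described here are 35 enzymes, regulators and carriers of the mevalonate, sterol and fatty acid synthesis pathways, read in group 2 innate lymphoid cells (ILC2s) of the mouse lung. They were taken as a named list of genes by function, chosen with earlier results of these data known. All 35 were present among the 17438 genes of the deposited count table, and all 35 passed the filter on low counts. They were read as 3 groups, with 18 genes of sterol synthesis, 6 genes of sterol regulatory element binding protein (SREBP) control and sterol transport, and 11 genes of fatty acid synthesis.

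The study set 3 wild-type libraries (WT1 to WT3) against 3 libraries from mice labelled CD48 KO (KO1 to KO3), whose genotype is given as B6.129S4-Cd48tm1Rsr/EpaulJ, a targeted germline allele of Cd48. CD48 is a GPI-anchored protein of the SLAM family on the surface of haematopoietic cells. All 6 samples are labelled as sorted ILC2s from lung, of strain CB57BL/6, treated with IL-33, the epithelial alarm cytokine that activates ILC2s. The cells had been cultured before lysis, and neither the age of the mice nor the time in culture is given in the sources used here. No sample without IL-33 was analysed here, so the values describe the genotypes under that treatment alone. Nothing in the labels ties the samples to separate mice. The p-values thus measure only how far these samples lie apart, which may be technical.

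Cells make cholesterol from acetyl-CoA by way of mevalonate and squalene, and fatty acids from the same acetyl-CoA by way of malonyl-CoA. Both routes are driven by the SREBP transcription factors, which the escort protein SCAP carries from the endoplasmic reticulum to the Golgi for cleavage when membrane sterol is low. The INSIG proteins hold SCAP back when sterol is high. In lymphocytes the programme supplies membrane to cells that grow and divide.

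Library totals ran from 14928623 to 27450400 counts, and levels are given as CPM, counts scaled to a common library size. Values by library are given in the order of the library numbers. Cd48 itself was at 58.1, 46.5 and 41.5 CPM in WT and 4.51, 5.59 and 4.40 CPM in KO. The level was low in the 3 libraries labelled KO. The 11 ILC2 markers listed, among them Gata3, Il1rl1 and Il5, were all present and summed to between 13585 and 18464 CPM per library. Among them Il2ra (log2 fold change 0.31, edgeR adjusted p = 0.02) and Il5 (0.29, edgeR adjusted p = 0.0332) were called higher in KO without WT1 and not with 6 libraries. With 6 libraries Il5 was at -0.02, of the other sign. Without WT1, Gata3 (-0.23), Areg (-0.20), Cxcr6 (-0.13) and Klrg1 (-0.03) lay below 0, and the rest of the 11 lay above 0. None of those others was called. WT1 stood apart. Its correlation with the other libraries over genes was 0.922 to 0.932, against 0.980 to 0.988 for all pairs without it, and 0.264% of its counts were mitochondrial, against 0.619% in WT2, 0.535% in WT3 and 0.678%, 0.737% and 0.777% in the KO libraries. The mitochondrial share was thus higher in every KO library than in every WT library, and its part in the results was not tested. The cDNA was made from 10 pg of RNA per sample, per the labels' protocols. Fold changes are therefore given with all 6 libraries and again without WT1, when the WT group is 2 libraries.

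Most of the 35 genes lay slightly higher in the KO libraries, and 5 of them passed the test once WT1 was left out. Idi1 and Hsd17b7 of sterol synthesis and Acaca, Scd2 and Fads2 of fatty acid synthesis rose, by log2 fold changes between 0.33 and 0.54, and 0 fell (edgeR quasi-likelihood test, Benjamini-Hochberg adjusted p under 0.05). Those 5 were 14.3% of the 35, while 1.17% of the 13643 genes tested were called higher without WT1 and 0.652% were called lower, 1.82% in all. With all 6 libraries edgeR called 0 of the 35, and 0.015% of the 13317 genes tested were called in each direction, 0.03% in all. With 6 libraries 3 of the 35 were higher at an unadjusted p under 0.05 and 0 were lower, where 2.94% of all genes tested were higher and 3.95% lower. In the same libraries DESeq2 called 2 of the 35, Hsd17b7 and Fads2, and limma-voom called 0. Without WT1, 9 of the 35 were higher at an unadjusted p under 0.05 and 0 were lower, beside 8.07% and 5.6% of all genes tested. In bulk RNA, fewer cells of a type and less RNA per cell cannot be told apart.

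The calls made without WT1 rested on few libraries. With WT3, KO2 or KO3 left out as well, edgeR called 0 of the 35, without WT2 it called 1 (Hsd17b7), and without KO1 it called 6, the same 5 genes and Msmo1. In a fit that was not robust to outlying genes only Scd2 was called, and Acaca and Fads2 were not called by limma-voom or with no filter. Acaca was also not called once the trend on transcript length was removed.

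The direction was the same for most genes, at a small size. Without WT1, 29 of the 35 log2 fold changes were above 0, with a median of 0.11, where 50.2% of all genes tested were above 0 and their median was 0.0005. With all 6 libraries 22 were above 0, with a median of 0.10, beside 49.5% and a median of -0.004 for all genes tested. By group these were 8 of 18 sterol genes (median -0.006), 4 of 6 regulators (0.13) and 10 of 11 fatty acid genes (0.22). With Hsd17b7 left out, 7 of 17 sterol genes were above 0 (median -0.009). The sterol genes thus held no common direction with 6 libraries. When WT1 was left out, 17 of 18 sterol genes were above 0 (median 0.10), 4 of 6 regulators (0.05) and 8 of 11 fatty acid genes (0.14). With Hsd17b7 left out as well, 16 of 17 sterol genes were above 0 (median 0.094). The contrast between the sterol and fatty acid groups thus rested on WT1. In 13 of the 35 genes every KO library lay above all 3 WT libraries, WT1 included, and in 0 did every KO library lie below them. The same pattern was found for 10.2% of all genes tested in the first direction and 9.09% in the second. Without WT1, 19 genes had every KO library above WT2 and WT3 (15.8% of all genes tested) and 1 gene, Srebf1, had every KO library below them (14.2%).

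Summed over the 35 genes, the level was 4616, 5258 and 5182 CPM in the WT libraries and 5657, 5789 and 5728 CPM in the KO libraries. All 3 KO libraries were above all 3 WT libraries. The fatty acid genes gave the same order, at 1254, 1825 and 1815 CPM in the WT libraries and 2042, 2028 and 2049 CPM in the KO libraries. The sterol genes were at 2663.9, 2506 and 2451 CPM in WT and 2664.4, 2805 and 2747 CPM in KO. With Hsd17b7 in the sum the order was the same, but WT1 and KO1 differed by less than 1 CPM. Hsd17b7 itself was at 35.6 CPM in WT1 and 64.2 CPM in KO1. Without it the sum of KO1 lay below that of WT1, so this order rested on Hsd17b7. The regulator group was at 698, 928 and 915 CPM in WT and 950, 956 and 932 CPM in KO, with KO3 just above WT2.

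**Figure D1:**
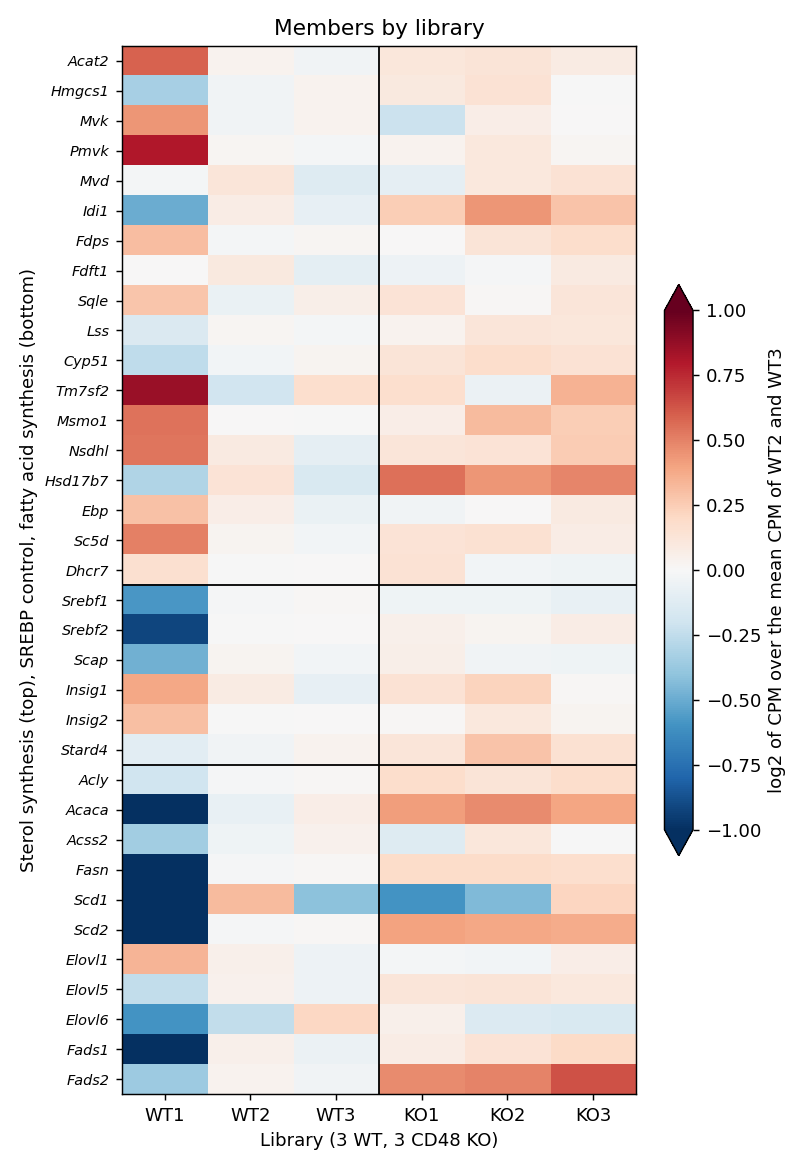
Heat map of the 35 genes (rows, in pathway order) in the 6 libraries (columns), coloured by the log2 of CPM over the mean CPM of WT2 and WT3, with colours capped at -1 and 1. The KO columns are mostly pale red, the rows of Idi1, Hsd17b7, Acaca, Scd2 and Fads2 are red in all 3 KO libraries, and the WT1 column holds both the deepest red and the deepest blue cells.

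The sterol genes start with the steps to mevalonate. Acat2 joins acetyl-CoA into acetoacetyl-CoA, Hmgcs1 makes HMG-CoA, and Mvk, Pmvk and Mvd turn mevalonate into isopentenyl pyrophosphate. None of these 5 was called in either fit. Acat2 was at 148.1, 100.7 and 95.7 CPM in WT and 106.2, 107.2 and 104.2 CPM in KO. Its level was highest in WT1, and the 3 KO libraries lay just above WT2 and WT3, so the log2 fold change was -0.12 (SE 0.18) with 6 libraries and 0.11 (SE 0.07) without WT1. Pmvk, the phosphomevalonate kinase, was at 51.6, 29.9 and 29.2 CPM in WT and 30.3, 31.7 and 29.9 CPM in KO. It gave the lowest log2 fold change of the 35 with 6 libraries, -0.27 (SE 0.24), and 0.06 (SE 0.11) without WT1, so its sign rested on WT1. Mvk, mevalonate kinase, was at 35.2, 25.2 and 26.6 CPM in WT and 22.3, 27.1 and 26.0 CPM in KO. The 2 groups overlapped in both fits, with log2 fold changes of -0.04 (SE 0.13) without WT1 and -0.20 (SE 0.18) with 6 libraries. Hmgcs1 was at 172.1, 211.2 and 221.1 CPM in WT and 231.7, 239.2 and 215.1 CPM in KO, and KO3 lay inside the range of the WT libraries. The log2 fold change was 0.08 (SE 0.07) without WT1 and 0.18 (SE 0.13) with 6 libraries.

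Idi1 was the called gene of the isoprenoid steps. It encodes isopentenyl-diphosphate isomerase, which makes dimethylallyl pyrophosphate, the starter unit of all later isoprenoids. It was at 249.2, 370.5 and 332.4 CPM in WT and 417.9, 477.5 and 427.9 CPM in KO. Every KO library was above every WT library, and the mean was 351.5 ± 26.9 CPM (SD, n = 2) in WT2 and WT3 and 441.1 ± 31.9 CPM (SD, n = 3) in KO. The log2 fold change was 0.33 (SE 0.07, edgeR adjusted p = 0.0397) without WT1 and 0.47 (SE 0.16, edgeR adjusted p = 0.69) with 6 libraries. Idi1 lies on chromosome 13, from 8885501 to 8892451 on the plus strand of GRCm38, and the annotation places Gm48574 on the opposite strand within it. Whether reads were counted by strand is not given in the sources used here, so reads of the pair cannot be told apart.

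Fdps, the farnesyl pyrophosphate synthase, joins Idi1's products into the last precursor that sterols share with ubiquinone, dolichol and prenylated proteins. It was at 390.6, 310.5 and 320.3 CPM in WT and 317.1, 345.5 and 356.0 CPM in KO. WT1 was the highest library, the groups overlapped in both fits, and the log2 fold change was 0.11 (SE 0.06) without WT1 and -0.004 (SE 0.13) with 6 libraries. Fdft1, the squalene synthase that commits farnesyl units to sterols, showed log2 fold changes of 0.01 (SE 0.08) without WT1 and 0.0071 (SE 0.11) with 6 libraries. Its gene overlaps Ctsb on the other strand. Sqle, the squalene epoxidase, was at 255.7, 201.7 and 219.9 CPM in WT and 231.7, 212.9 and 228.8 CPM in KO, with overlap in both fits and log2 fold changes of 0.09 (SE 0.07) without WT1 and -0.0087 (SE 0.12) with 6 libraries. Lss, which closes the ring to lanosterol, had all 3 KO libraries above all 3 WT libraries, at 171.7, 191.8 and 187.6 CPM in WT and 194.2, 206.7 and 205.0 CPM in KO. Its log2 fold changes of 0.09 (SE 0.06) without WT1 and 0.14 (SE 0.10) with 6 libraries were not called.

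Beyond lanosterol, Cyp51, the lanosterol demethylase, was the most abundant per transcript length, with 70.8 CPM per kb over the 6 libraries. It was at 226.6, 265.6 and 276.1 CPM in WT and 296.5, 305.5 and 300.0 CPM in KO. The groups did not overlap, and the log2 fold change was 0.15 (SE 0.06, edgeR adjusted p = 0.253) without WT1 and 0.23 (SE 0.11) with 6 libraries. Akap9 overlaps Cyp51 on the other strand. Msmo1, the sterol methyl oxidase, was at 223.9, 153.8 and 153.8 CPM in WT and 160.9, 191.1 and 182.6 CPM in KO. WT2 and WT3 were equal to the first decimal, and the KO libraries were all above them, but WT1 was above every other library. The log2 fold change of Msmo1 was 0.22 (SE 0.08, edgeR adjusted p = 0.244) without WT1 and 0.0085 (SE 0.18) with 6 libraries. Nsdhl and Sc5d followed the same order, with WT1 highest, WT2 and WT3 lowest and log2 fold changes without WT1 of 0.18 (SE 0.10) and 0.12 (SE 0.06), neither called. With 6 libraries they were -0.03 (SE 0.18) and -0.07 (SE 0.16), of the other sign. Ebp and Dhcr7, which act late in the route, had log2 fold changes of 0.02 and 0.03 without WT1, each smaller than its SE of 0.08 and 0.09, and -0.09 and -0.03 with 6 libraries. Tm7sf2, a sterol reductase, was the lowest of the sterol genes at 7.88, 3.80 and 4.88 CPM in WT and 4.88, 4.18 and 5.53 CPM in KO, with log2 fold changes of 0.15 (SE 0.25) without WT1 and -0.18 (SE 0.31) with 6 libraries.

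Hsd17b7, which encodes the keto reductase of the sterol demethylation complex, was the other called sterol gene. It was at 35.6, 48.3 and 39.5 CPM in WT and 64.2, 59.6 and 61.5 CPM in KO. No KO library overlapped a WT library, and the mean went from 43.9 ± 6.17 CPM (SD, n = 2) in WT2 and WT3 to 61.8 ± 2.34 CPM (SD, n = 3) in KO, 1.41 times as high. The log2 fold change was 0.50 (SE 0.10, edgeR adjusted p = 0.03) without WT1 and 0.59 (SE 0.15, edgeR adjusted p = 0.689) with 6 libraries. Hsd17b7 lies on chromosome 1 from 169949535 to 169969241 on the minus strand of GRCm38, 1.71 Mb from Cd48, the targeted gene. An effect of its linkage to the targeted allele and an effect of losing CD48 cannot be told apart in these samples. With Hsd17b7 left out, 4 of 34 genes were called higher without WT1, the median log2 fold change of the 34 was 0.10, and 18 had every KO library above WT2 and WT3. With 6 libraries the median without Hsd17b7 was 0.097 and 12 genes had every KO library above every WT library. Within sterol synthesis, leaving it out left 1 called gene of 17.

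Promoter sequence was read as the 250 bases before the gene start that RefSeq gives (GRCm38.p6), which covered 28 of the 35 genes. By the GENCODE annotation 9 of the 28 genes have a window that lies for more than 125 bases inside the gene itself. Acaca and Fads2 are among them, and 32.7% of the tested genes with a window have the same. Fdps, Fdft1, Sqle, Stard4, Scd1, Scd2 and Fads1 are named only. Each window was searched on both strands for 4 motifs: TCACNCCAC, a form of the sterol regulatory element, CCAAT, the box bound by NF-Y, GGGCGG, the GC box bound by Sp1, and CACGTG, an E-box. The sequences below show Hmgcs1, the only one of the 28 with the TCACNCCAC form, the called gene Hsd17b7, and Fasn of the fatty acid route. Capitals mark motif matches, a match on the other strand appears as its reverse complement (CCAAT as ATTGG), and matches that overlap are run together. Bases that the annotation assigns to an exon of the same gene were left out, so Hsd17b7 is shown as 214 bases.
Hmgcs1, chr13:119690101-119690350, plus strand: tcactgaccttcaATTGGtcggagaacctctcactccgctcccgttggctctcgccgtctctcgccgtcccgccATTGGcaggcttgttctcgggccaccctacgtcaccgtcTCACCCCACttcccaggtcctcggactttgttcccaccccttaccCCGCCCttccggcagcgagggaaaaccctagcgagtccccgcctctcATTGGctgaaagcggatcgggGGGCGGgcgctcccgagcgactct
Hsd17b7, chr1:169969242-169969455, minus strand: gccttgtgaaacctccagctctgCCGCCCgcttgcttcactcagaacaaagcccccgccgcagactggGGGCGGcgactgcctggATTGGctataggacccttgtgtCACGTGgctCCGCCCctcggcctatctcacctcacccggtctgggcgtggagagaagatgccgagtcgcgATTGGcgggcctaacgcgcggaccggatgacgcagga
Fasn, chr11:120824548-120824797, minus strand: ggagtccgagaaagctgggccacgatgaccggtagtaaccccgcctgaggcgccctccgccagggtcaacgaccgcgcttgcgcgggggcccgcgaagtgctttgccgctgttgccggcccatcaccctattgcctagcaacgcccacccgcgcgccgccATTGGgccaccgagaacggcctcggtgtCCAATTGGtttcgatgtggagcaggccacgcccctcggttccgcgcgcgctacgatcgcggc
A gene was counted for a motif when any of its windows held a match. CCAAT was found for 22 of the 28 genes (78.6%), against 41.1% of the 9538 tested genes with a window. GGGCGG was in 23 (82.1% against 64%), CACGTG in 6 (21.4% against 9.98%) and TCACNCCAC in 1 (3.57% against 1.18%). With the windows mostly inside the gene left out, a choice made after seeing the data, the shares were 78.9% against 39.4% for CCAAT, 84.2% against 61.7% for GGGCGG, 26.3% against 8.77% for CACGTG and 5.26% against 0.872% for TCACNCCAC. Hmgcs1 holds 3 CCAAT boxes and 2 GC boxes beside its sterol element, Hsd17b7 holds 2 CCAAT boxes, 3 GC boxes and 1 E-box, and Fasn holds 3 CCAAT matches, 2 of which overlap. A match is a description of these letters, not of binding, and sequence outside the windows was not searched. The antisense gene 3110045C21Rik overlaps the Hsd17b7 window.

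The 6 genes that control the pathway held no call. None was called in either fit by edgeR, DESeq2 or limma-voom, and 0 had an unadjusted edgeR p under 0.05. Over all genes tested edgeR called 1.82% without WT1 and 0.03% with 6 libraries. At an unadjusted edgeR p under 0.05 without WT1, 8.07% were higher and 5.6% lower. At those shares 0 of 6 does not set these genes apart from other genes. Srebf2, the factor that acts mainly on sterol genes, was at 175.8, 331.2 and 331.7 CPM in WT and 342.8, 338.5 and 349.1 CPM in KO. WT1 was the lowest library and KO2, the lowest KO library, was above WT3, the highest WT library, with log2 fold changes of 0.05 (SE 0.05) without WT1 and 0.30 (SE 0.24) with 6 libraries. Srebf1, whose products act mainly on fatty acid genes, was at 162.1, 241.0 and 243.8 CPM in WT and 235.8, 235.8 and 230.5 CPM in KO. The 3 KO libraries lay just below WT2 and WT3 and above WT1, so its log2 fold change was -0.05 (SE 0.06) without WT1 and 0.12 (SE 0.17) with 6 libraries. Rai1 overlaps Srebf1 on the other strand. Per transcript length the ratio of Srebf2 to Srebf1 was 1.15 to 1.28 in 5 libraries and 0.918 in WT1.

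Scap, the escort of the SREBPs, was at 85.4, 121.4 and 116.9 CPM in WT and 124.4, 116.0 and 115.7 CPM in KO, with overlapping groups and log2 fold changes of -0.003 (SE 0.07) without WT1 and 0.14 (SE 0.16) with 6 libraries. Insig1 and Insig2 encode its anchors in the endoplasmic reticulum, and Insig1 is itself an SREBP target. Insig1 was at 166.5, 134.3 and 120.2 CPM in WT and 140.7, 148.4 and 127.9 CPM in KO, with overlap in both fits and log2 fold changes of 0.13 (SE 0.08) without WT1 and -0.01 (SE 0.15) with 6 libraries. Per transcript length Insig1 stood at 2.65 to 3.09 times the level of Insig2, with the WT and KO ranges overlapping. Insig2 also lies on chromosome 1, 50.35 Mb from Cd48, and showed log2 fold changes of 0.05 (SE 0.10) without WT1 and -0.06 (SE 0.13) with 6 libraries. Stard4, a cytosolic sterol carrier and SREBP target, was at 52.2, 54.8 and 57.5 CPM in WT and 61.1, 68.4 and 62.3 CPM in KO. Its KO libraries were above all 3 WT libraries, and the log2 fold changes of 0.19 (SE 0.09) without WT1 and 0.22 (SE 0.12) with 6 libraries were not called.

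**Figure D2:**
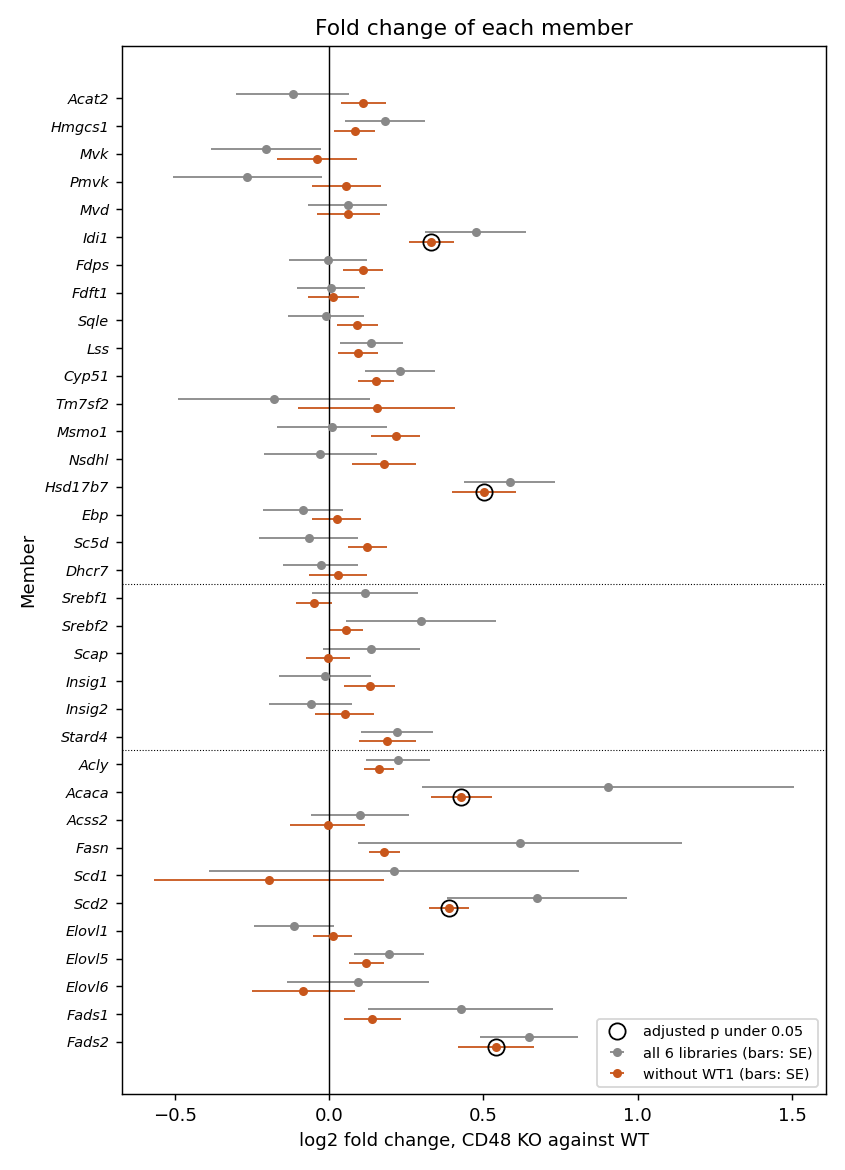
Log2 fold change of each of the 35 genes, CD48 KO against WT (x axis), with the fit of all 6 libraries in grey and the fit without WT1 in orange, bars giving 1 SE and rings marking an adjusted p under 0.05. Orange points lie right of 0 for 29 genes and 5 are ringed, no grey point is ringed, and the grey bars of Acaca, Fasn and Scd1 are the widest.

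Fatty acid synthesis held 3 of the 5 called genes. Acly, which frees acetyl-CoA from citrate in the cytosol and so feeds both routes, had the highest level per transcript length of the 35, with 139.5 CPM per kb over the 6 libraries. It was at 519.2, 591.8 and 598.6 CPM in WT and 671.6, 652.1 and 671.2 CPM in KO. The groups did not overlap, and the log2 fold change was 0.16 (SE 0.05, edgeR adjusted p = 0.14) without WT1 and 0.22 (SE 0.10) with 6 libraries, not called in either. Acss2, which makes acetyl-CoA from acetate, was at 23.2, 28.6 and 30.5 CPM in WT and 27.0, 31.9 and 29.4 CPM in KO, with overlap and log2 fold changes of -0.0047 (SE 0.12) without WT1 and 0.10 (SE 0.16) with 6 libraries.

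Acaca encodes acetyl-CoA carboxylase 1, which makes malonyl-CoA and limits the rate of fatty acid synthesis. It was at 6.21, 38.5 and 42.6 CPM in WT and 54.2, 56.3 and 53.3 CPM in KO. WT1 was far below the rest, and the KO libraries were above WT2 and WT3 as well, with means of 54.6 ± 1.54 CPM (SD, n = 3) and 40.5 ± 2.84 CPM (SD, n = 2). The log2 fold change was 0.43 (SE 0.10, edgeR adjusted p = 0.0449) without WT1. With 6 libraries it was 0.90 with an SE of 0.60, and WT1 alone moved the value by more than 1.5 times. Gm11437 overlaps Acaca on the other strand. Fasn, the fatty acid synthase that uses malonyl-CoA, was at 92.4, 437.8 and 446.9 CPM in WT and 502.5, 501.5 and 496.4 CPM in KO. The highest KO library was 1.01 times the lowest and all 3 were above WT2 and WT3, but the log2 fold change of 0.18 (SE 0.05) without WT1 had an edgeR adjusted p of 0.117 and was not called. With 6 libraries it was 0.62 (SE 0.52), so WT1 moved it by more than 1.5 times, as it did for Scd2, Fads1 and Srebf2 among others. Per transcript length the ratio of Fasn to Acaca was 8.43 to 8.81 in KO, 9.94 to 10.8 in WT2 and WT3 and 14.1 in WT1.

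The desaturases Scd1 and Scd2 put the first double bond into saturated fatty acids. Scd2 was the form these cells held, at 34.9 to 95.6 times the level of Scd1 per transcript length. Scd2 was at 60.2, 131.2 and 133.4 CPM in WT and 174.8, 172.8 and 171.2 CPM in KO. The mean was 132.3 ± 1.52 CPM (SD, n = 2) in WT2 and WT3 and 172.9 ± 1.79 CPM (SD, n = 3) in KO, 1.31 times as high, with no overlap. Its log2 fold change was 0.39 (SE 0.07) without WT1, with the lowest adjusted p of the 35 (edgeR, 0.0108), and 0.67 (SE 0.29) with 6 libraries. Scd1 was at 0.558, 3.33 and 2.01 CPM in WT and 1.77, 1.97 and 3.10 CPM in KO, with overlap and log2 fold changes of -0.20 (SE 0.37) without WT1 and 0.21 (SE 0.60) with 6 libraries. The 2 paralogs are alike in sequence, and how the authors' counting split reads between them is not given in the sources used here.

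Fads2 and Fads1 encode the desaturases that turn dietary linoleic and linolenic acid into longer polyunsaturated fatty acids. Fads2 acts first. It was at 15.6, 20.7 and 19.6 CPM in WT and 27.9, 28.4 and 31.3 CPM in KO. All 3 KO libraries were above all 3 WT libraries, and the mean was 1.45 times that of WT2 and WT3, the highest ratio of the 35, at 29.2 ± 1.83 CPM (SD, n = 3) against 20.1 ± 0.748 CPM (SD, n = 2). The log2 fold change was 0.54 (SE 0.12, edgeR adjusted p = 0.046) without WT1 and 0.65 (SE 0.16, edgeR adjusted p = 0.683) with 6 libraries. Fads1, its neighbour on chromosome 19, was at 24.0, 55.3 and 51.3 CPM in WT and 56.1, 58.8 and 60.9 CPM in KO, also without overlap, and its log2 fold changes of 0.14 (SE 0.09) without WT1 and 0.43 (SE 0.30) with 6 libraries were not called. Per transcript length the ratio of Fads1 to Fads2 was 2.38 to 2.44 in WT2 and WT3, 1.77 to 1.88 in the KO libraries and 1.40 in WT1.

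The elongases extend the chains that Fasn and the diet supply. Elovl5, which acts on polyunsaturated chains, was at 230.5, 282.2 and 264.2 CPM in WT and 297.3, 298.7 and 293.5 CPM in KO. The KO libraries were above all 3 WT libraries, with log2 fold changes of 0.12 (SE 0.06) without WT1 and 0.19 (SE 0.11) with 6 libraries that were not called. Elovl1, which makes very long saturated chains, was at 271.2, 221.8 and 207.3 CPM in WT and 212.1, 211.0 and 224.1 CPM in KO, and its log2 fold change was 0.01 (SE 0.06) without WT1 and -0.11 (SE 0.13) with 6 libraries. The groups overlapped, and Cdc20 overlaps Elovl1 on the other strand. Elovl6, which extends palmitate, was at 10.8, 13.8 and 18.9 CPM in WT and 17.0, 14.9 and 14.7 CPM in KO, with log2 fold changes of -0.08 (SE 0.17) without WT1 and 0.09 (SE 0.23) with 6 libraries. WT2 and WT3 were the ends of its range among the 5 libraries, so no difference was detectable.

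**Figure D3:**
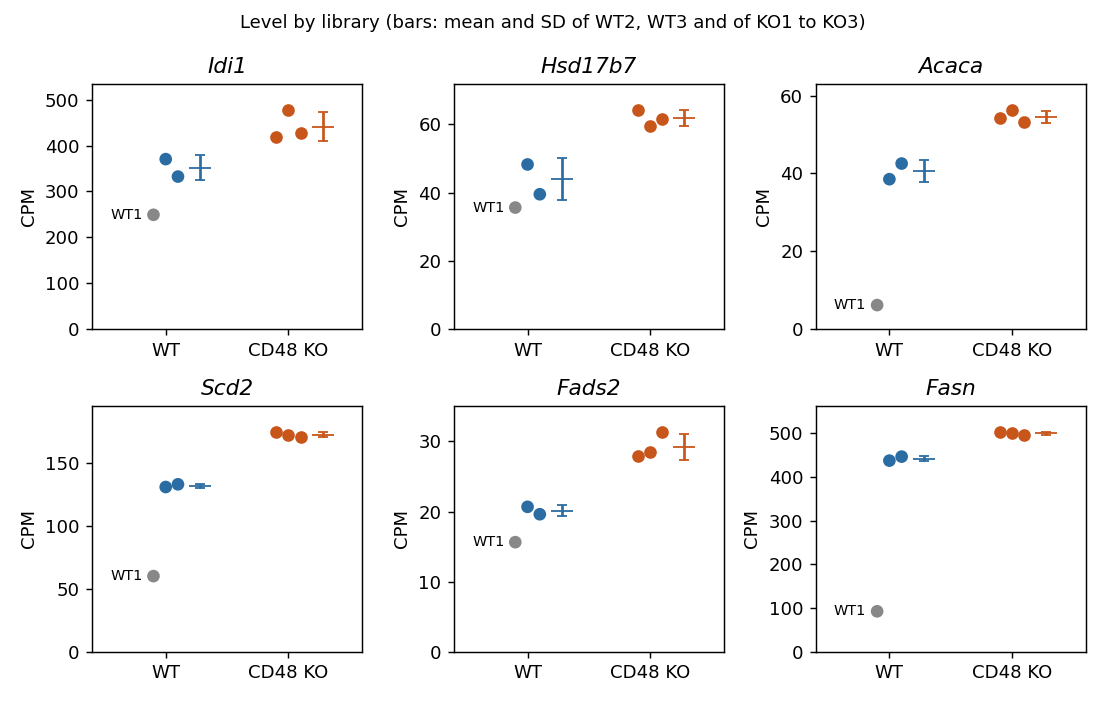
Level in CPM (y axis, from 0) of the 5 genes called without WT1 and of Fasn in each library, with WT1 in grey, WT2 and WT3 in blue and the KO libraries in orange, and bars giving the mean and SD of WT2 and WT3 and of the 3 KO libraries. In each of the 6 panels every KO library lies above every WT library, and WT1 is the lowest point, at 6.2 CPM for Acaca and 92.4 CPM for Fasn.

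The spread between libraries was small outside WT1. Among the 33 genes left by a floor of 10 CPM on the mean, the highest KO library was a median of 1.09 times the lowest, from 1.01 for Fasn to 1.22 for Mvk. WT2 and WT3 differed by a median of 1.05 times, up to 1.37 times for Elovl6. With WT1 in the group the median was 1.35 times and Acaca reached 6.85 times.

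WT1 differed from WT2 and WT3 by transcript length, and the 35 genes followed the same order as all genes. For the 14 genes with transcripts of at least 4 kb, WT1 minus the mean of WT2 and WT3 had a median of -0.53 on the log2 scale, where the median of all tested genes of that length was -0.46, and 12 of the 14 were below 0. The 17 genes of 2 to 4 kb had a median of 0.16 beside 0.025 for all genes, and the 4 genes under 2 kb had 0.32 beside 0.29. Across the 35 genes Spearman's rho of the difference with length was -0.67, and across 13053 tested genes it was -0.35, all from the same 3 libraries. Acaca (9.51 kb) had a log2 difference of -2.68 and Fasn (10.1 kb) of -2.26, where the trend of all genes stood at -0.84 and -0.87. Of the genes called without WT1, Scd2 (5.46 kb) was at -1.13, Idi1 (3.03 kb) at -0.49, Fads2 (3.15 kb) at -0.36 and Hsd17b7 (4.61 kb) at -0.29. All of these were below the trend at their length, and 17 of the 35 genes were. The part of transcript length in the 6-library values was not tested beyond the fit with that trend removed, in which the median log2 fold change of the 35 genes was 0.047.

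**Figure D4:**
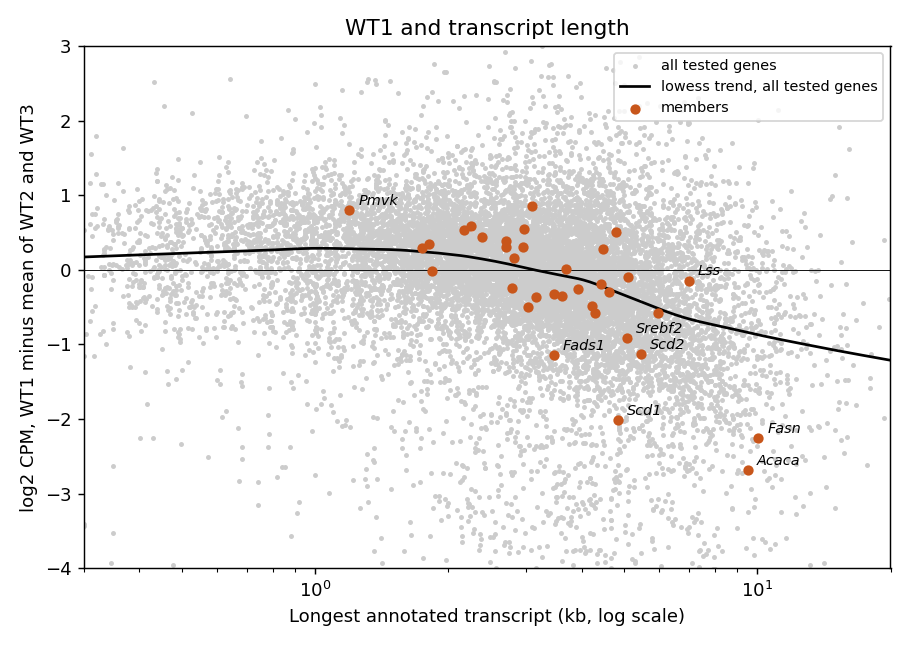
Log2 CPM of WT1 minus the mean of WT2 and WT3 (y axis, cut off at both ends) against the longest annotated transcript in kb (x axis, log scale), with tested genes in grey, the 35 genes in orange and a lowess trend as the black line. The trend falls with length, and Acaca and Fasn, the 2 longest of the 35, lie lowest, at -2.68 and -2.26.

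The wider pathway did not hold further calls. Of 53 other genes of isoprenoid, sterol and fatty acid metabolism, 48 were tested, and edgeR, DESeq2 and limma-voom each called 0 in either fit. Over all genes tested edgeR called 1.82% without WT1 and 0.03% with 6 libraries, so 0 of 48 lies close to those shares. At an unadjusted edgeR p under 0.05, 5 were higher and 3 lower without WT1, where 8.07% and 5.6% of all genes tested were. With 6 libraries 0 were higher and 3 lower, beside 2.94% and 3.95% of all genes tested. Their median log2 fold changes were 0.04 in both fits. With 6 libraries, 5 of the 48 had every KO library above every WT library and 5 had every KO library below. Over all genes tested these shares were 10.2% and 9.09%. Against WT2 and WT3 alone the counts were 10 and 7, beside 15.8% and 14.2% of all genes tested. Scarb1, a lipoprotein receptor that takes up cholesterol, was at 77.6, 64.3 and 56.0 CPM in WT and 72.3, 77.0 and 73.5 CPM in KO. Its KO libraries were above WT2 and WT3 but not above WT1, with a log2 fold change of 0.31 (SE 0.09, edgeR adjusted p = 0.125) without WT1 and 0.17 (SE 0.15) with 6 libraries. Pggt1b, the catalytic subunit of geranylgeranyl transferase I, had its KO libraries above all WT libraries, at 15.6, 34.6 and 31.8 CPM in WT and 39.4, 38.8 and 42.0 CPM in KO. Pdss1, which builds the tail of ubiquinone, was at 23.7, 14.5 and 15.8 CPM in WT and 17.4, 22.2 and 20.8 CPM in KO, and Coq2, which attaches that tail, at 30.9, 44.1 and 24.3 CPM in WT and 31.5, 23.0 and 19.8 CPM in KO.

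Erlin2, a protein of the endoplasmic reticulum that takes part in sterol-sensing degradation, was at 36.6, 41.8 and 57.8 CPM in WT and 58.1, 56.6 and 56.1 CPM in KO, with overlap. Abcg1, the LXR target that exports sterol, was at 30.6, 9.53 and 13.2 CPM in WT and 8.48, 8.78 and 11.0 CPM in KO. WT1 was the highest library, and the log2 fold change was -0.28 (SE 0.20) without WT1 and, over 3 times as large, -0.91 (SE 0.43) with 6 libraries.

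Markers of other cells were low, and some moved with genotype. T cell markers were in the table for 3 of 6 genes and summed to 25.6 to 43.4 CPM in WT and 13.7 to 15.6 CPM in KO, nearly all of it Cd3g. Without WT1, Cd3g was called lower in KO, with a log2 fold change of -0.92, as was the epithelial marker Epcam, with -0.83. With 6 libraries their log2 fold changes were -1.19 and -0.82, and neither was called. Markers of type 2 alveolar epithelium, a cell type rich in lipid synthesis, were present for 7 of 7 and summed to 28.0 to 74.9 CPM in WT and 25.0 to 29.8 CPM in KO. Its defining gene Sftpc was at 0 in WT1 and KO3 and at 23.3 CPM in WT2. Macrophage markers (5 of 7) summed to 8.93 to 27.8 CPM in WT and 5.41 to 14.0 CPM in KO. The 1 adipocyte marker of 4 in the table, Lipe, was at 20.7 to 27.7 CPM in WT and 15.1 to 21.2 CPM in KO, and Col1a2, the 1 fibroblast marker of 4, was at 0 in 5 libraries. Endothelial markers (2 of 4) summed to 29.1 to 40.1 CPM in WT and 40.1 to 41.8 CPM in KO, nearly all of it Pecam1. The part of other cells in these values was not tested.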

How the data were processed

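RNA-seq libraries of 3 WT and 3 CD48 KO samples were grouped by their titles. Tools named in the submitters' processing notes, without roles, are Partek 10.0, STAR 2.7.8 and DESeq2, with mm10 as build. Counter, annotation and strand setting: not given in the sources used here. Deposited values are estimated counts, judged so from the values: 60.2% of those above 0 are whole within 0.001. They were rounded. Of 17438 genes, 17022 matched GENCODE M21 (GRCm38), which gave positions and the longest transcript.

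Tests used edgeR 4.0.16 in R 4.3.3 (robust quasi-likelihood, TMM, filterByExpr with a minimum count of 10 and total of 15), adjusted by Benjamini-Hochberg over all tested genes and called at an adjusted p under 0.05. SE was derived as the size of the fold change (log2) divided by the root of F. CPM are TMM-scaled over 6 libraries. No replicate pair agreed within sampling noise (chi-square per gene from 5.22 to 135). The fits were tested on simulated data. Alternatives were other size factors and filters, DESeq2 1.42.0, limma-voom (limma 3.58.1) with sample weights, a fit that was not robust, an adjusted p under 0.1, removal of a length trend (lowess, span 0.3), the replicate block, each library left out, and Hsd17b7 left out.

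The genes, lists and tests were chosen with earlier results of these data known. Values are given in full for called genes, the 6 most abundant per length, Hsd17b7 and the 3 largest rises and falls per fit above a mean of 10 CPM, and other genes are named beside them. Other pathway genes are named by the largest rises and falls, of which 1 is not reported here. Other marker lists were B cell (14.1 to 20.0 CPM in WT, 12.2 to 17.2 in KO) and mast cell and basophil (0.466 to 1.46 in WT, 0.244 to 0.369 in KO).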

Additional observations from a re-analysis of the deposited data

How the results depend on the processing

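The median log2 fold change of the 35 genes stayed above 0 in every setting run, from 0.047 to 0.19 with 6 libraries and from 0.074 to 0.12 without WT1, and no called gene changed sign. Calls were less stable. With 6 libraries DESeq2 called 2 of the 35 and 108 genes in all, and limma-voom called 95 genes in all, where edgeR called 0 and 4; leaving out each library in turn gave 0 to 5 of the 35 and 0 to 248 genes in all, the upper values without WT1. Without WT1, 3 of the 35 were called with no filter, 3 with limma-voom and 1 in the fit that was not robust, against 5; over all genes DESeq2 called 412, the fit that was not robust 157 and an adjusted p under 0.1 gave 420, against 248. Leaving out a further library gave 0 to 6 of the 35 and 65 to 517 genes in all. The causes were not tested. Of the genes not called, 20 of 35 with 6 libraries and 11 of 30 without WT1 changed sign in some setting. The replicate numbers did not pair the samples (correlations of same-numbered deviations of -0.046, -0.036 and -0.009). With the replicate block 0 genes were called with 6 libraries, and without WT1 570 genes, among them 3 of the 35 (Idi1, Msmo1 and Scd2). In that fit without WT1, KO1 had no WT library of its number. The genotype comparison there was thus WT2 and WT3 against KO2 and KO3 only. Depth limited Scd1 and Tm7sf2, which a mean of at least 10 CPM left out.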
